A study of Mus musculus with 3 samples.

Results

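Apoe, Apoc2, Lpl, Abca1, Abcg1, Nr1h3, Nr1h2, Npc2, Npc1 and Ch25h are 10 mouse genes that take part in cholesterol efflux and lipoprotein handling, or in their control. They were taken by symbol from the 55418 annotated symbols of the deposited tables, and all 10 were found in every library. The RNA came from the cytosolic fraction of bone marrow-derived macrophages of C57BL/6J mice, given lipid A, the Toll-like receptor 4 agonist part of lipopolysaccharide, at 100 ng/ml for 90 min. Ribosomal RNA had been depleted from 1 µg of RNA. The series holds 1 group of 3 libraries, called replicates 1, 2 and 3, which the labels number as biological replicates under the same donor identifier, so p-values measure only the spread between these libraries, which may be partly technical. Macrophages without lipid A and nuclear fractions were not analysed here. No response to lipid A was therefore measured, and levels were compared between genes within a library.

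Macrophages take up lipoproteins and cell debris and free the cholesterol in lysosomes. NPC2 and NPC1 pass it out of the lysosome, and the membrane transporters ABCA1 and ABCG1 load it onto apolipoprotein A-I and high-density lipoprotein. The liver X receptors LXRβ (Nr1h2) and LXRα (Nr1h3) are nuclear receptors that bind oxysterols and, paired with retinoid X receptors, switch on Abca1, Abcg1, Apoe, Apoc2 and Lpl. Cholesterol 25-hydroxylase (Ch25h) makes an oxysterol and is known as a gene that macrophages induce on Toll-like receptor and interferon signalling.

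The libraries held 33821479, 47843161 and 59390843 expected counts in replicates 1, 2 and 3, so replicate 3 is the deepest. The members took 248720, 407101 and 576604 of them. TPM, the level used below, is a gene's share of all transcripts corrected for length. The reference level in each library was the median TPM of the 8747 protein-coding genes that averaged 1 TPM or more, which was 7.38, 6.08 and 6.21 TPM in replicates 1, 2 and 3. All 8 macrophage markers exceeded 1 TPM and summed to between 4722 and 6747 TPM per library. Of the 6 adipocyte markers, 5 had at most 1 count over the 3 libraries together. The sixth, Fabp4, which macrophages also express, had 119 to 155 TPM. No hepatocyte marker exceeded 1 TPM, 5 of 6 had 0 counts, and their sum was 0 to 0.02 TPM. Fibroblast markers summed to 0.07 to 0.18 TPM, neutrophil markers to 3.39 to 6.6 TPM and endothelial markers to 9.17 to 12.45 TPM. In bulk RNA, fewer cells that express a gene and less of its RNA per cell cannot be told apart.

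The promoter sequences of 3 members that carry motifs searched for are shown, for genes above (Abca1), near (Apoc2) and below (Ch25h) the reference level. The sequences are the 250 bases before the annotated start, on the minus strand, from RefSeq with the build GRCm38.p6. Windows were given for 7 of the 10 members. Abcg1, Lpl and Npc1 had none, so they were not searched for motifs.
Abca1, chr4:53159896-53160145: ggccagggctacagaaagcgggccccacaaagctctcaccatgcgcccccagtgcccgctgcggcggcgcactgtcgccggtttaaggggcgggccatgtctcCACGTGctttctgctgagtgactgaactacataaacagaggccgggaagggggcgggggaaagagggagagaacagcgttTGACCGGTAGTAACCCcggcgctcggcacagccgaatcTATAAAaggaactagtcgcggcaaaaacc
Apoc2, chr7:19677942-19678191: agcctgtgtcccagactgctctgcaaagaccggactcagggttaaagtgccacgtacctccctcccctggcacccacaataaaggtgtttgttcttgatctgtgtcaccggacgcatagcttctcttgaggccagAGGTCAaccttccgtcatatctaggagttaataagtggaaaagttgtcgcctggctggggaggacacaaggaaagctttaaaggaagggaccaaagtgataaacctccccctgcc
Ch25h, chr19:34475149-34475398: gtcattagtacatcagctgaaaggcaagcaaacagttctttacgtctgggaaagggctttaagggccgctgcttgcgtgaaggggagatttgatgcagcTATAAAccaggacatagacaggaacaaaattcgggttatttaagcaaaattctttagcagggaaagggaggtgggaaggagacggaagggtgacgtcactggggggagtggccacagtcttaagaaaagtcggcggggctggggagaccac
Capitals mark motif matches. LXR with a retinoid X receptor binds a direct repeat with a spacer of 4 bases (DR4), searched on both strands as NGGTNA, any 4 bases, and NGGTNA again. It was found in 0.621% of 32851 promoter windows of this length, and among member windows in Abca1 alone, 67 to 52 bases before the start on the reverse strand. A single AGGTCA repeat unit stood in 14% of all windows and, among the members, in the Apoc2 window, 115 to 110 bases before the start. Abca1 also had a CACGTG E-box 147 to 142 bases before the start, a motif in 6.02% of windows. TATAAA, in 12.4% of windows, stood 29 to 24 bases before the Abca1 start and 151 to 146 bases before the Ch25h start, and in an Apoe window. These are matches of letters and say nothing about binding in these cells.

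Of the 10 members, 7 lay above the reference, 1 below it, and 2 at about its level. Apoe, Lpl, Npc2, Abca1, Npc1, Abcg1 and Nr1h2 were above, Ch25h was below, and Apoc2 and Nr1h3 had no call. A call needed a log2 difference of at least 1 and an adjusted p under 0.05 in limma, with Benjamini-Hochberg adjustment over all genes tested. Of 13327 genes tested, 20.5% were above and 50.6% below. The members' median was 42.4 TPM, or 2.61 log2 units over the reference, against 3.15 TPM and -1.06 log2 units over all genes tested. The members were picked as genes macrophages are known to use, so no more is read from these counts.

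**Figure D1:**
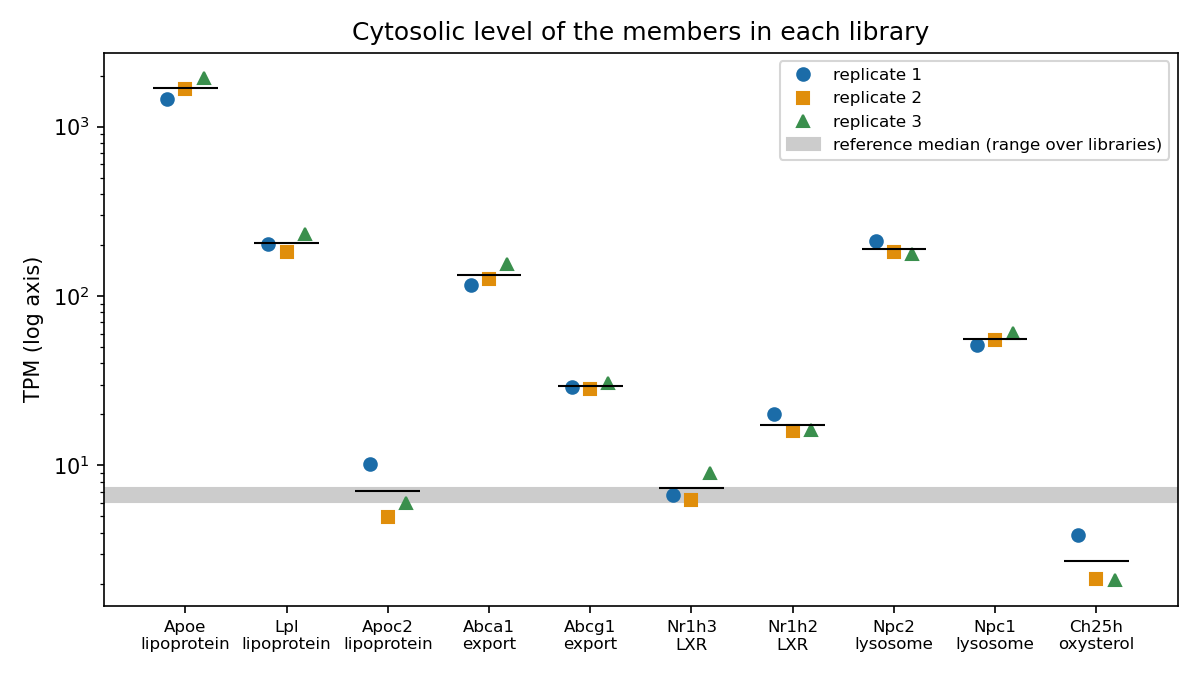
TPM (log axis) of each member, ordered by role, in replicates 1, 2 and 3 (points) with their mean (line), and the grey band at the range of the library reference, 6.08 to 7.38 TPM. Apoe stands far above the rest, Nr1h3 and Apoc2 lie at the band, and Ch25h lies below it.

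Apoe encodes apolipoprotein E, which macrophages secrete and which binds receptors of the LDL receptor family. It lies on chromosome 7 (chr7:19696109-19699188, minus strand, mm10; ENSMUSG00000002985.16). It had 1458, 1663 and 1935 TPM in replicates 1, 2 and 3, a mean of 1685 ± 239 TPM (SD, n = 3). It ranked 12 among 21991 protein-coding genes, and replicate 1 was the lowest of the libraries. This order of libraries was reversed in a second deposited quantification, as described below. The level was 252-fold over the reference (7.98 ± 0.34 on the log2 scale, SD; limma adjusted p = 3.28e-05). Apoe held 69.1, 73.4 and 73.8% of the TPM of the 10 members, but 28, 31.8 and 32.1% of their counts, since its transcripts are short. The members together made up 0.801, 1.06 and 1.22% of nuclear-encoded protein-coding TPM.

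Apoc2 encodes apolipoprotein C-II, the cofactor that lipoprotein lipase needs, and lies in the same cluster (chr7:19671579-19677941, minus strand; ENSMUSG00000002992.17). It had 10.19, 4.97 and 6.02 TPM in replicates 1, 2 and 3, from 240, 197 and 288 expected counts. Its mean was 7.06 ± 2.76 TPM (SD, n = 3), with replicate 1 alone above its own library's reference. The log2 difference of 0.04 ± 0.38 gave no call (limma adjusted p = 0.819). Without replicate 1 the log2 difference was -0.19, so its sign rests on that library. Apoe exceeded Apoc2 by 143, 335 and 321 times in replicates 1, 2 and 3 (249-fold in the mean of log2 ratios, 7.96 ± 0.69 SD). An exact sign-flip test on 3 libraries cannot give a two-sided p below 0.25, and gave 0.25 here.

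Apoc1 and Apoc4 lie between them, all 4 genes on the minus strand within 27610 bases, and were named after their values were seen. Apoc1 had 7, 8 and 13 counts (0.517 ± 0.140 TPM) and Apoc4 had 2, 1 and 7 counts (0.110 ± 0.0800 TPM), each below the reference (limma adjusted p = 5.35e-05 and 0.000169). The cluster thus held an abundant RNA, Apoe, one near the reference, Apoc2, and a pair that was barely detected. Gm44805 overlaps Apoc2 on the same strand and is identical over 647 bases to an Apoc2 transcript. Only Apoc2-203, of 727 bases and at 0 TPM in every library, is long enough for this. Apoc2-201, which held most Apoc2 TPM, has 631 bases. Gm44805 was listed at 0 counts, so the split of reads between it and Apoc2 is uncertain.

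Lpl encodes lipoprotein lipase, which hydrolyses the triglyceride of lipoproteins (chr8:68880491-68907448, plus strand; ENSMUSG00000015568.16). Its level was 203, 182 and 232 TPM in replicates 1, 2 and 3, a mean of 206 ± 25.0 TPM (SD, n = 3), with no library far from the others. It was 30.9-fold over the reference (4.95 ± 0.23 on the log2 scale; limma adjusted p = 3.58e-05). Lpl exceeded the RNA of its cofactor Apoc2 by 19.9, 36.6 and 38.5 times in the libraries (30.4-fold; exact p = 0.25, the smallest possible).

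Abca1 hands phospholipid and cholesterol to lipid-poor apolipoprotein A-I (chr4:53030787-53159895, minus strand; ENSMUSG00000015243.4). Abca1 had 117, 127 and 154 TPM in replicates 1, 2 and 3, a mean of 132 ± 19.1 TPM (SD, n = 3), lowest in replicate 1 and highest in replicate 3. As for Apoe, the second quantification reversed this order. It was 19.8-fold over the reference (4.31 ± 0.32 on the log2 scale; limma adjusted p = 7.2e-05). Abcg1 moves cholesterol to high-density lipoprotein (chr17:31057675-31117988, plus strand; ENSMUSG00000024030.7). Its 28.89, 28.22 and 30.53 TPM lay close together, at 29.2 ± 1.19 TPM (SD, n = 3) and 4.42-fold over the reference (2.14 ± 0.17; limma adjusted p = 0.000108). Abca1 exceeded Abcg1 in every library, by 4.04, 4.49 and 5.04 times, 4.5-fold in the mean of log2 ratios (2.17 ± 0.16 SD; exact p = 0.25, the smallest possible).

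Of the receptors, Nr1h3 (LXRα; chr2:91184061-91202834, minus strand; ENSMUSG00000002108.10) was the lower. It had 6.71, 6.26 and 9.02 TPM in replicates 1, 2 and 3, from 625, 930 and 1640 counts, with replicate 3 the highest. Its mean of 7.33 ± 1.48 TPM (SD, n = 3) gave a log2 difference of 0.15 ± 0.35 from the reference and no call (limma adjusted p = 0.421). Without replicate 3 that difference was -0.038.

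Nr1h2 (LXRβ; chr7:44549616-44553951, minus strand; ENSMUSG00000060601.13) had 19.99, 15.89 and 16.17 TPM, a mean of 17.4 ± 2.29 TPM (SD, n = 3). Relative to each library's reference it varied little, at 1.39 ± 0.03 on the log2 scale or 2.62-fold (limma adjusted p = 8.83e-05). This call was lost with the second deposited quantification (log2 0.84) and with a reference of genes of at least 5 TPM (log2 0.36), since the difference then fell under 1. Nr1h3 stood at 0.336, 0.394 and 0.558 times Nr1h2 in the libraries (log2 -1.25 ± 0.37 SD), so Nr1h2 was 2.38-fold higher (exact p = 0.25, the smallest possible).

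Npc2, the soluble lysosomal protein that collects free cholesterol, lies on chromosome 12 (chr12:84754562-84773152, minus strand; ENSMUSG00000021242.9). Npc2 had 212, 181 and 178 TPM in replicates 1, 2 and 3, a mean of 191 ± 19.0 TPM (SD, n = 3). Against the library reference the spread was 4.84 ± 0.03, a 28.6-fold level (limma adjusted p = 3.17e-05). Npc1, the membrane protein that receives cholesterol from NPC2, had 51.2, 55.2 and 60.6 TPM, a mean of 55.7 ± 4.73 TPM, 8.39-fold over the reference (3.07 ± 0.26; limma adjusted p = 9.77e-05). The soluble partner was higher in every library, with Npc2 at 4.15, 3.28 and 2.94 times Npc1 (3.42-fold; exact p = 0.25, the smallest possible). The value depends on which Npc1 transcripts are counted, as described below.

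Ch25h is an intronless gene for cholesterol 25-hydroxylase (chr19:34473778-34475164, minus strand; ENSMUSG00000050370.5), and was the least abundant member. It had 3.89, 2.13 and 2.09 TPM in replicates 1, 2 and 3, from 267, 236 and 282 counts, a mean of 2.70 ± 1.03 TPM (SD, n = 3). Replicate 1 was 1.86 times the lowest library. It lay 2.46-fold below the reference (log2 -1.30 ± 0.34; limma adjusted p = 0.00227), and 77.3% of the 8747 protein-coding genes had a higher level. Whether it had been lower or higher without lipid A was not analysed here.

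In order of mean TPM the members ran Apoe, Lpl, Npc2, Abca1, Npc1, Abcg1, Nr1h2, Nr1h3, Apoc2 and Ch25h. A pair was taken to differ beyond its spread where the mean log2 ratio exceeded 2 SD over the libraries and had the same sign in every library. Lpl and Npc2 did not differ beyond it (Lpl at 0.956, 1.01 and 1.3 times Npc2), nor did Npc2 and Abca1 (1.82, 1.43 and 1.16 times), nor Nr1h3 and Apoc2 (0.658, 1.26 and 1.5 times). The other neighbours did. Apoe was 8.18-fold over Lpl, Abca1 was 2.37-fold over Npc1, and Npc1 was 1.9-fold over Abcg1. Abcg1 was 1.69-fold over Nr1h2, Nr1h2 was 2.38-fold over Nr1h3, and Apoc2 was 2.6-fold over Ch25h. The ratios with Npc1 depend on which of its transcripts are counted, as described below. Coding Npc1 TPM in the first quantification was 32.31, 34.85 and 38.92 in replicates 1, 2 and 3. Coding Abcg1 TPM was 28.89, 28.16 and 30.35.

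By the mean absolute log2 difference over the 3 libraries, the protein-coding genes nearest in level to Apoe were Actb (0.23) and Tmsb4x (0.24), which encode β-actin and thymosin β4. Nearest to Abca1 were Fabp4 (0.08), a fatty acid binding protein, and Soat1 (0.08), which esterifies cholesterol. Nearest to Nr1h3 were Atp9b (0.04) and Slc4a7 (0.05), and nearest to Ch25h were Ppp1r35 (0.05) and Eipr1 (0.06).

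Across the libraries, scaled to log2 CPM (CPM being counts scaled to library size, here after TMM), the members' SDs ranged from 0.03 for Npc2 to 0.36 for Apoe. The median SD was 0.29 for the members and 0.12 for the 12330 genes that reached 10 counts in each library. Apoe deviated from its mean by -0.40, 0.09 and 0.30 in replicates 1, 2 and 3, and Abca1 by -0.33, 0.05 and 0.28. Nr1h3 deviated by -0.28, -0.11 and 0.40. Apoe, Lpl, Abca1, Abcg1, Nr1h3 and Npc1 were lowest in replicate 1 and highest in replicate 3, 6 of 10 members, against 24.1% of all genes. The highest library was replicate 1 for 3 members, replicate 2 for 1 and replicate 3 for 6, against 38.3, 26.1 and 35.6% of all genes. Ch25h ran the other way, with 0.40, -0.18 and -0.23, and Apoc2 was also highest in replicate 1, with 0.38, -0.31 and -0.07.

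No member varied beyond the trend of genes of like abundance by edgeR's goodness-of-fit test, at an adjusted p under 0.05, and neither did one with DESeq2 size factors. Of all genes 2.28% did. Nr1h3 alone passed an unadjusted 0.05 (edgeR adjusted p = 0.295), as did 5.86% of all genes. The nuclear RNAs Malat1 (128, 335 and 913 TPM) and Neat1 (12.9, 24.1 and 66.9 TPM) rose from replicate 1 to 3. The 6 members had this order of libraries in log2 CPM, but in TPM Lpl, Abcg1 and Nr1h3 were lowest in replicate 2. The part of these nuclear RNAs in the members' differences was not tested.

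**Figure D2:**
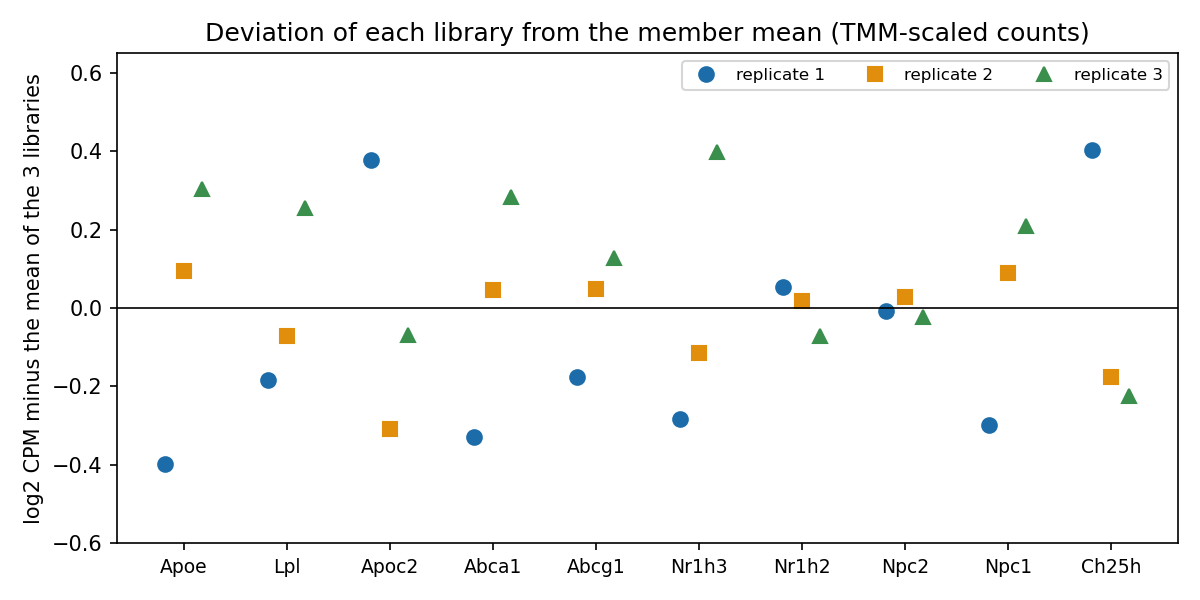
Log2 CPM of each member in replicates 1, 2 and 3 as the deviation from its own mean over the 3 libraries. Apoe spans -0.40 to 0.30, Npc2 lies within 0.03 of 0, and Ch25h and Apoc2 are highest in replicate 1.

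The authors deposited a second quantification made directly from reads, which gave lower TPM than the first, by a median of -1.02, -1.22 and -1.52 log2 units over genes in replicates 1, 2 and 3. Apoe averaged 651 ± 54.4 TPM in the second and 1685 ± 239 TPM in the first (SD, n = 3). Ch25h averaged 1.08 ± 0.616 TPM in the second and 2.70 ± 1.03 TPM in the first. In the second, Apoe had 699.9, 660 and 592.3 TPM in replicates 1, 2 and 3, and Abca1 had 53.78, 49.61 and 47.75 TPM. Both thus fell from replicate 1 to 3 in the second and rose in the first. Npc1, Abcg1, Lpl and Nr1h3 were also highest in replicate 1 in the second. After the median shift over genes was removed, no member differed by a log2 of at least 1, against 2.72% of 9481 genes higher and 1.93% lower. Npc1 differed by -0.40 ± 0.03 (limma adjusted p = 0.00397), and the other members by -0.14 to 0.02. Adjusted p was under 0.05 for Abca1, Lpl, Nr1h2, Npc1 and Npc2, each lower in the second, as for 24.2% of all genes.

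For Npc1 the quantifications assigned reads to different transcripts. Transcripts not annotated as protein-coding held 8.67, 5.33 and 6.78% of Npc1 TPM in the second quantification and 36.9, 36.8 and 35.8% in the first. The difference exceeded the spread between libraries, at 6.93 ± 1.68% in the second and 36.5 ± 0.606% in the first. Npc1-206, an entry of 2219 bases in 5 exons annotated as a retained intron, held 3.68 ± 1.19% in the second and 34.3 ± 0.994% in the first. It shares 2020 bases with the coding Npc1-201 and has 199 of its own. Npc1-201 held 93.1 ± 1.68% in the second and 63.5 ± 0.606% in the first. Coding Npc1 TPM was 17.76, 16.64 and 14.65 in the second and 32.31, 34.85 and 38.92 in the first. The log2 ratio of Npc2 to Npc1 over all transcripts was 2.05 in the second and 1.77 in the first. Rmc1 overlaps Npc1 by 967 bases on the opposite strand, with 663, 956 and 1412 counts. How reads of that overlap were split is uncertain, since no source used here says whether counting was stranded.

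For Apoe, 11 transcripts were quantified. The coding Apoe-209 held 64.2 ± 3.53% of TPM in the second and 66.3 ± 5.0% in the first, and Apoe-202, a processed transcript of 728 bases, held 28.5 ± 2.86% in the second and 24.4 ± 2.37% in the first. Apoe-202 shares 681 of its bases with Apoe-209 and has 47 of its own. Apoe-209 is longer, at 1104 bases, so reads in the part that Apoe-202 lacks can also tell them apart. The TPM of the receptors was assigned to more coding forms, which few reads tell apart. Nr1h2-203 has 0 bases and Nr1h2-202 has 3 that Nr1h2-201 lacks, and Nr1h3-202 has 35 that Nr1h3-201 lacks. In the first quantification Nr1h2-201, Nr1h2-202 and Nr1h2-203 held 42.2 ± 2.54, 21.4 ± 2.07 and 16.0 ± 3.43% of 18 transcripts, and Nr1h3-201 and Nr1h3-202 held 55.7 ± 7.02 and 30.0 ± 4.52% of 8. The non-coding share of Nr1h3 was 10.7 ± 3.68% in the second and 7.86 ± 3.03% in the first. Lpl-201, Abca1-201, Npc2-201, Abcg1-201 and Apoc2-201 each held a mean of 97.7% or more of their gene in the first, with Apoc2-201 at 93.2% in replicate 3. Abcg1-201 held 88.5 ± 3.75% in the second and 98.5 ± 0.833% in the first. Ch25h has a single transcript.

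**Figure D3:**
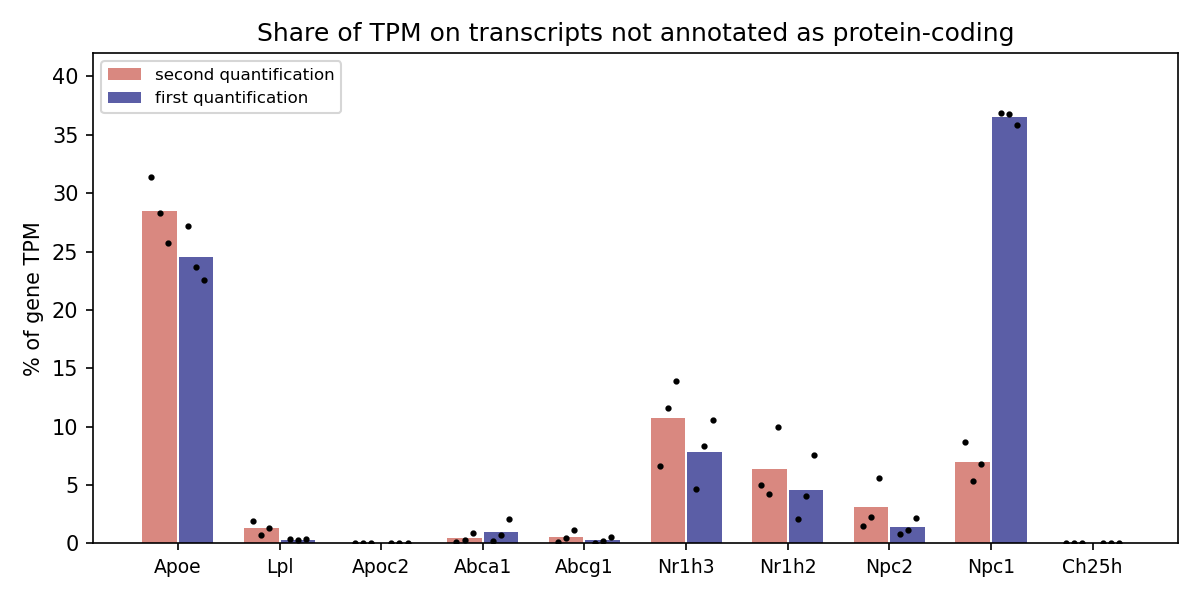
Percent of each member's TPM on transcripts not annotated as protein-coding in the second (left bars) and first (right bars) quantification, as means with a point per library. Npc1 is at 6.93% in the second and 36.5% in the first, while Apoe is at 28.5% in the second and 24.5% in the first.

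The 93 other genes of the pathway, in 9 lists of which some genes belong to more than 1, gave 25 genes above the reference, 16 below, 28 with no call and 24 under 0.1 TPM that were not tested, of which 12 had 0 counts. Of the 13327 genes tested, 20.5% were above and 50.6% below. With a reference of genes of at least 5 TPM, 17 of the 69 tested pathway genes were above and 25 below. Under that reference 1422 of the 13327 genes tested were above and 8812 below. The median of the 93 genes was 5.75 TPM. Among 13 other LXR targets, 6 were above, 3 below and 2 had no call. The highest were Pltp, a phospholipid transfer protein, at 177 ± 8.04 TPM, and Cd5l, a secreted scavenger-receptor family protein, at 174 ± 23.6 TPM. Of 14 LXR partners and cofactors, 2 were above and 11 had no call. The corepressor Ncor1 was above, at 32.03 ± 1.45 TPM. Of the retinoid X receptors, Rxra had 7.83 ± 0.863 TPM, Rxrb 3.64 ± 0.539 TPM and Rxrg 0 counts.

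Of 13 other apolipoproteins none was above, 4 were below and 9 were not tested, 6 of them at 0 counts, and all 13 had a lower mean TPM than Apoe and Apoc2. The highest of the others were Apoc1, given above, and Apoa2 at 0.180 ± 0.0985 TPM. Of 11 other ABCA and ABCG transporters and Scarb1, a high-density lipoprotein receptor, 5 were below and none above. Scarb1 had 13.3 ± 3.21 TPM and Abca3, a lipid transporter, had 9.43 ± 0.898 TPM. Of 11 partners and relatives of lipoprotein lipase, Sel1l, a part of the endoplasmic reticulum quality control that lipase maturation uses, was above at 29.5 ± 1.16 TPM, 3 were below and Lipg, endothelial lipase, had 3.87 ± 2.59 TPM.

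Of 9 lipoprotein and scavenger receptors, 5 were above and 1 below. Lrp1, a large receptor for apolipoprotein E, had 138 ± 32.2 TPM, and Cd36, a receptor for oxidised lipoprotein, had 101 ± 22.9 TPM. Of 13 endolysosomal sterol genes, 8 were above and none below. Lamp1, a lysosomal membrane protein, had 566 ± 87.8 TPM and Lipa, the acid lipase that frees cholesterol, had 198 ± 8.79 TPM. Of 8 genes of cholesteryl ester storage, 3 were above and 1 below, led by Plin2, a lipid droplet coat protein, at 236 ± 34.9 TPM and Soat1 at 132 ± 9.22 TPM. Of 7 other oxysterol genes none was above and 1 was below. Cyp27a1, which makes 27-hydroxycholesterol, had 11.7 ± 1.92 TPM, Hsd3b7 had 7.06 ± 1.01 TPM, and neither was called.

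**Figure D4:**
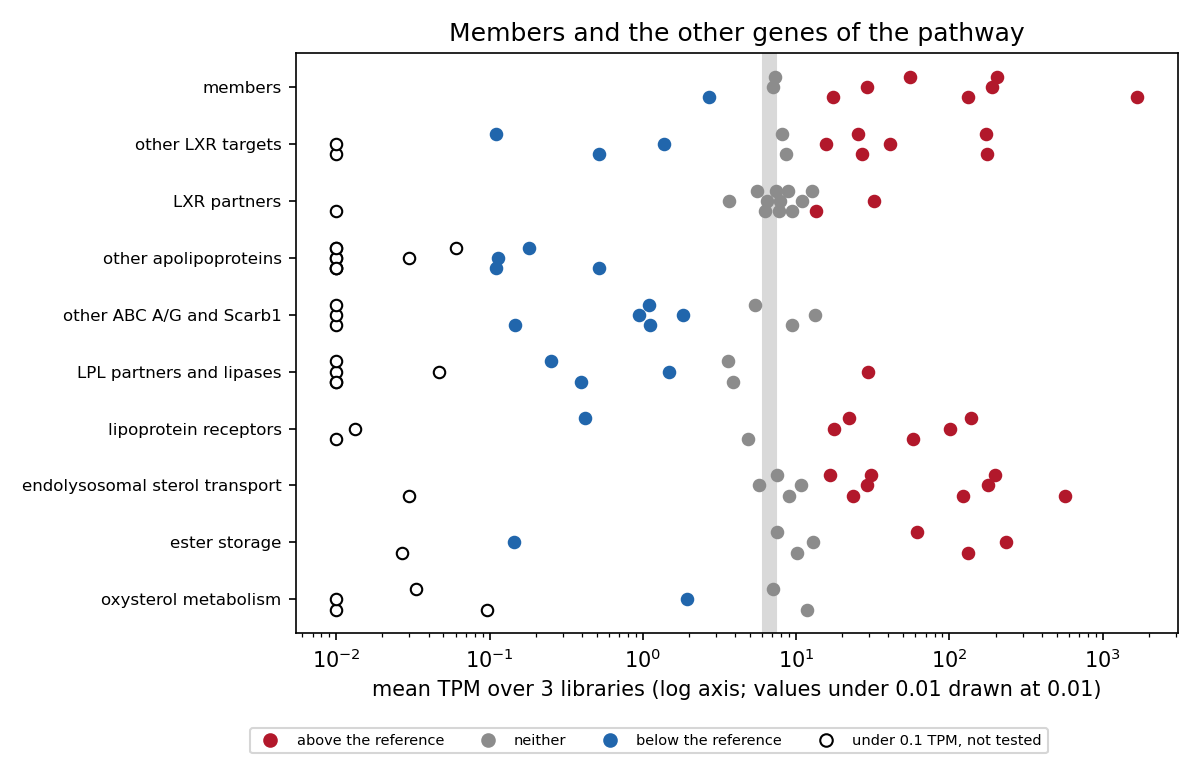
Mean TPM over 3 libraries (log axis) of the 10 members and of each list of other pathway genes, coloured by call, with the grey band at the reference of 6.08 to 7.38 TPM. Values under 0.01 TPM are drawn at 0.01. No other apolipoprotein reaches the band, while 8 of 13 endolysosomal sterol genes were called above the reference.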

How the data were processed

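Per the labels, RNA from 3 libraries was depleted of ribosomal RNA. Per the file headers and the deposited descriptions, the authors derived gene and transcript expected counts, TPM and FPKM with TPM interval bounds from transcriptome alignments (mm10, GENCODE M21), and estimated counts and TPM per transcript directly from reads (the second quantification). No source used here names the tools or the strand setting. The deposited intervals, whose level is not stated, ran from 4.848 to 6.586 TPM for Apoc2 in replicate 3, against its 6.02 TPM, and from 1905 to 1925 TPM for Apoe, whose 1935 TPM lay outside; they were not used. Counts and floors cover counting error only. A count of 0 allows 3 counts, which is 0.0891, 0.0628 and 0.0506 CPM in replicates 1, 2 and 3.

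Values of 115 symbols with more than 1 identifier were summed. Levels were tested as log2(TPM + 0.1) minus the library median with limma 3.58.1 (R 4.3.3) for genes averaging 0.1 TPM or more. Fold changes on this scale understate low genes. Expected counts were rounded, scaled by TMM (edgeR 4.0.16) and converted to log2 CPM with a prior count of 2; variation was tested by goodness of fit to the trended dispersion. Quantifications were compared by limma on median-centred log2 ratios, for genes averaging 1 TPM in either. Deposited FPKM and DESeq2 1.42.0 size factors served as alternatives. Copies were searched with blastn 2.17.0. Only the limma test and the goodness-of-fit test were tried on simulated data with known changes. Ratios, transcript shares, copies and motifs were not. The members, the gene lists and the tests were chosen with earlier results of these data known. Genes outside the members were named as the top 2 of each list by mean TPM, the 2 nearest in level, genes overlapping a member, or genes stated to be chosen after their values were seen, as the retinoid X receptors and the nuclear RNAs also were; 1 gene that this rule names is not reported here.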

Additional observations from a re-analysis of the deposited data

How the results depend on the processing

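Of 252 values recomputed under alternatives, 237 kept their direction and their side of the threshold, stayed within the spread between libraries, or, for counts of genes, stayed within 1.5 times. The members' SDs of log2 CPM are among the 237 but are always positive, so they could not change direction. Without replicate 1 the SD of Ch25h went from 0.349 to 0.038 and that of Apoe from 0.359 to 0.144. Without replicate 2 that of Apoe rose to 0.497, and without replicate 3 that of Nr1h3 went from 0.354 to 0.119. The 7 members above and 1 below the reference stayed within 1.5 times these counts, with 6 above under the second quantification and with a reference of genes of at least 5 TPM. The 25 other pathway genes above became 17 with that reference and 22 with the second quantification. The 16 below became 25 with the reference of at least 5 TPM and 41 with no filter on low values. The counts over all genes moved in the same direction. Those above, 2726 of 13327, became 1422 with the reference of at least 5 TPM and 2070 of 13369 with the second quantification. Those below, 6742 of 13327, became 8812 with the reference of at least 5 TPM and 48879 of 55418 with no filter. The log2 difference of Apoc2 from the reference, 0.04, became -0.48 with the second quantification and -0.98 with the reference of at least 5 TPM, and ranged from -0.19 to 0.23 with a replicate left out. That of Nr1h3, 0.15, became -0.33 and -0.88 in the same settings and ranged from -0.038 to 0.26. With the reference of at least 5 TPM the limma adjusted p was 0.00669 for Apoc2 and 0.00826 for Nr1h3. Neither difference reached the log2 of 1 that a call needed. The median-centred log2 ratio of the quantifications for Abcg1, at 0.02, became -0.19 with a pseudocount of 1 TPM and -0.10 with a filter of 0.1 TPM, and ranged from -0.013 to 0.051 with a replicate left out, while that of Ch25h, at -0.06, became 0.15 with the pseudocount of 1 TPM. The cause was not tested. The adjusted p values under 0.05 for Abca1, Lpl, Nr1h2 and Npc2 in that comparison rose above 0.05 with any replicate left out, and for Npc1 they were 0.0205, 0.0510 and 0.0291 without replicates 1, 2 and 3. In the other direction, the adjusted p came under 0.05 for Apoe and Abcg1 with the pseudocount of 1 TPM (limma, 0.00937 and 0.0256), and for Apoe, Apoc2, Nr1h3 and Ch25h with the filter of 0.1 TPM (0.0399, 0.0280, 0.0496 and 0.0257). The goodness-of-fit calls over all genes numbered 281, and 96 to 180 with a replicate left out. No paired analysis was possible because the replicate numbers belong to 1 group. With 3 libraries no exact test could reach a p below 0.25, and Apoc2 and Ch25h rest on 197 to 288 counts a library.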

Other observations

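Among the 93 other pathway genes, 64 had at least 10 counts in every library, and 1 of them varied between libraries beyond the trend of genes of like abundance, against 2.28% of all genes, so the count shows nothing particular to the pathway. It was Lipg, endothelial lipase, a relative of lipoprotein lipase, chosen here after its values were seen, with 6.33, 4.1 and 1.17 TPM in replicates 1, 2 and 3 (edgeR goodness-of-fit test, adjusted p = 4.04e-16). The SD of its log2 CPM was 1.18, against 0.23 for Lpl. At an unadjusted p under 0.05 there were 4, against 5.86% of all genes, the others being Cd36, Lrp1 and Scd1. Scd1, a fatty acid desaturase, had 1.7, 1.43 and 1.01 TPM, lowest in replicate 3. Lrp1 had 106.5, 135.3 and 170.8 TPM and Cd36 had 87.8, 88.4 and 127.8 TPM. Replicate 3 was the highest for each, as for Apoe and Abca1 in the first quantification. None of Scd1, Lrp1 and Cd36 passed the adjustment (edgeR adjusted p = 0.169 for Scd1, 0.547 for Lrp1 and 0.224 for Cd36).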
